A study of Mus musculus with 238 samples.

Results

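The genes described here are Fgfr1, Fgfr2, Fgfr3 and Fgfrl1, the fibroblast growth factor (FGF) receptor genes that the brain libraries of this series detected throughout, and they make up 4 of the 21076 genes in the count table. They were chosen by name, as members of the receptor family, with earlier results of these data known, and the values behind that choice are not stated. The fitted p-values below therefore describe where the genes stood in fits over the whole table and are no independent evidence.

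RNA was sequenced in bulk from dissected brain regions and liver of C57BL/6JN mice aged 19 months, to compare gene expression between regions under a diet and under a plasma treatment. The diet experiment used 9 females, 5 under dietary restriction (aDR in the brain labels, DR in the liver labels) and 4 fed ad libitum (AL), with 131 brain and 9 liver libraries. The plasma experiment used 7 males, 3 injected with young mouse plasma (YMP) and 4 with saline (PBS), both by the retro-orbital route, with 98 brain libraries. Sex and experiment coincided, so the experiments were never set against each other as groups. Most diet comparisons set 5 mice against 4. Hypothalamus had 4 against 4, entorhinal cortex 5 against 3 and corpus callosum 4 against 3. In the plasma experiment 9 regions had 3 mice against 4, 5 regions had 3 against 3, and corpus callosum had 2 against 3. Each mouse gave at most 1 library per region, and the mouse was the replicate within regions and in the values per mouse.

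Fibroblast growth factors are secreted signals that bind receptor tyrosine kinases together with heparan sulfate chains or a Klotho co-receptor. Ligand binding pairs 2 receptors, whose kinase domains then switch on the Ras to MAP kinase relay, phospholipase C gamma and other pathways. Fgfr1, Fgfr2 and Fgfr3 encode such kinases, while Fgfrl1 encodes a family member that lacks the kinase domain. In the brain Fgfr1 is known from neurons, neural stem cells and glia, Fgfr2 from oligodendrocytes and astrocytes, and Fgfr3 from astrocytes. The remaining kinase of the family, Fgfr4, is best known from liver and is given only where liver is described.

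In the GRCm38 build the annotated transcript used for Fgfr1 ran from 25518759 to 25575718 on the plus strand of chromosome 8, with 18 exons. Fgfr2 was on the minus strand of chromosome 7 from 130163709 to 130266191, also with 18 exons. Fgfr3, from 33721724 to 33737068, and Fgfrl1, from 108694502 to 108706896, were both on the plus strand of chromosome 5, with 18 and 7 exons. The libraries carried no strand information, so reads of Fgfr1 could not be told from its antisense neighbour Gm16159, nor reads of Fgfr3 from the overlapping G630022F23Rik. Gene counts also cannot separate the alternative extracellular exons of Fgfr2 that set its ligand preference. Over the 238 libraries, counts ran from 26 to 5905 for Fgfr1 (median 978), 48 to 4637 for Fgfr2 (median 552) and 63 to 3985 for Fgfr3 (median 749). Fgfrl1 was the most thinly counted, with 9 to 780 reads and a median of 117.

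The RefSeq promoter table matched 3 of the 4 genes. The 250 bases upstream of a start site of each of these 3 are shown, and Fgfr1 had no entry. Capitals mark GGGCGG or its reverse complement CCGCCC, the GC box bound by Sp-family factors, searched on both strands.
Fgfr3, chr5:33721474-33721723, plus strand, GRCm38: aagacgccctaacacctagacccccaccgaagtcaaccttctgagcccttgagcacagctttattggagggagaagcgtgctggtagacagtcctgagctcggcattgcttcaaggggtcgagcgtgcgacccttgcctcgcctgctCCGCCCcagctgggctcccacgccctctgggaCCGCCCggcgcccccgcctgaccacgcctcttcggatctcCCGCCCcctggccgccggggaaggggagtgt
Fgfrl1, chr5:108693979-108694228, plus strand, GRCm38: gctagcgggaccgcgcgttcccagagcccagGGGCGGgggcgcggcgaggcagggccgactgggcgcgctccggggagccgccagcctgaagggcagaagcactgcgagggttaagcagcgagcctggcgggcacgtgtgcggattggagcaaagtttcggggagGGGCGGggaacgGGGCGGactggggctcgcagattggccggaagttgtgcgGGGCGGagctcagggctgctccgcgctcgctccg
Fgfr2, chr7:130266809-130267058, minus strand, GRCm38: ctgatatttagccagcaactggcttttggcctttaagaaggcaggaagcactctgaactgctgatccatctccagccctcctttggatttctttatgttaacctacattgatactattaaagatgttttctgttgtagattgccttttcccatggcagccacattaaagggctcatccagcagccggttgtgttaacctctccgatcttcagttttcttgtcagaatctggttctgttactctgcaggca
The Fgfr3 window held 3 GC boxes and 19 CpG dinucleotides at a GC content of 66.8%. The window of a further Fgfr3 start site, not shown, held 2 boxes and 24 CpG. The Fgfrl1 window held 4 boxes and 30 CpG at 73.6% GC. The Fgfr2 window held 0 boxes and 2 CpG at 44.0% GC. Only the Fgfr3 window shown adjoins the transcript used above. The Fgfr2 and Fgfrl1 windows lie upstream of other start sites than those of the transcripts used, at 130266191 and 108694502. They therefore do not describe the promoters of those transcripts. Over 32851 promoter windows of the same length, 32.7% held at least 1 box, and the median was 6.00 CpG at 52.4% GC. A match describes the letters only.

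Each of the 4 genes, taken here as those detected in every brain library, had its own regional profile. Levels are given as CPM, the count scaled to a common library total (the count divided by the sum of all counts of the library, in parts of 1 M). In the fit of all brain libraries with region as the term and the mouse as a block (edgeR quasi-likelihood F test, Benjamini-Hochberg adjustment), all 4 genes differed between regions in the diet experiment and again in the plasma experiment. The smallest F was that of Fgfrl1 in the plasma experiment (14.5, adjusted p 2.02e-16), and the largest that of Fgfr1 in the diet experiment (55.9, adjusted p 3.40e-43). Such differences were the rule, since 99.7% of genes were called in the diet and 99.1% in the plasma experiment. The order of the regions was alike in animals of both experiments, with Spearman coefficients over the 15 region means of 0.918 for Fgfr1, 0.979 for Fgfr2, 0.900 for Fgfr3 and 0.975 for Fgfrl1.

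**Figure D1:**
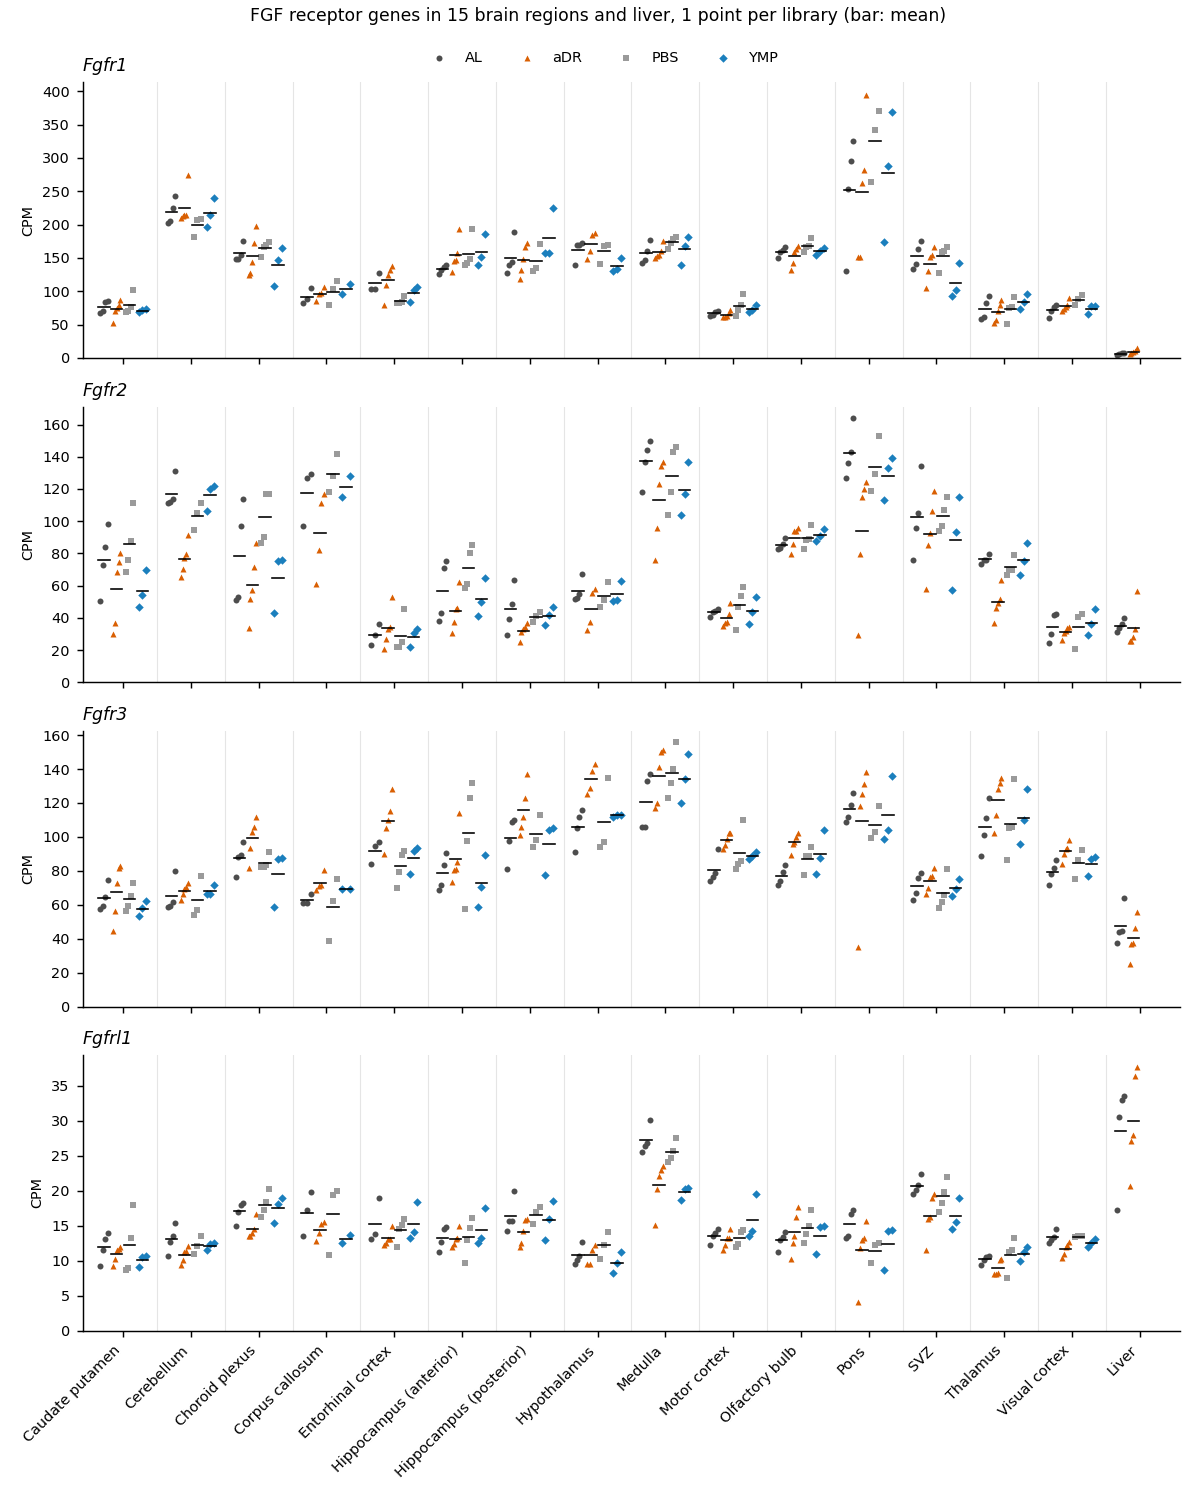
Level of each receptor gene in CPM (vertical axis, linear, from 0) in 15 brain regions and liver, with 1 point per library and a bar at the group mean. Fgfr1 peaks in pons and cerebellum, Fgfr2 in medulla, pons and corpus callosum, Fgfrl1 in medulla and liver, and the lowest aDR point of Fgfr2, Fgfr3 and Fgfrl1 in pons is a single library.

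Fgfr1 was highest in pons, at 250 ± 88.9 CPM (SD, n = 9) in the diet and 301 ± 75.8 CPM (SD, n = 6) in the plasma experiment. Pons was also where it varied most, from 131 to 394 CPM among the diet mice. Cerebellum followed, at 222 ± 22.8 CPM (SD, n = 9) and 208 ± 19.4 CPM (SD, n = 6). Levels between 145 and 166 CPM were found in hypothalamus, medulla, olfactory bulb, choroid plexus, SVZ and both hippocampal samples of the diet mice. Choroid plexus libraries also held neuronal Snap25 at 1961 to 3597 CPM, so receptor levels there are not those of choroid plexus alone. The lowest levels were those of motor cortex, at 65.7 ± 4.01 CPM (SD, n = 9) and 75.7 ± 10.7 CPM (SD, n = 7), with thalamus, caudate putamen and visual cortex close above. Highest and lowest region differed 3.80-fold in the diet and 3.98-fold in the plasma experiment.

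Fgfr2 was highest in medulla, pons and corpus callosum. It reached 124 ± 24.1 CPM (SD, n = 9) in medulla, 115 ± 39.5 CPM (SD, n = 9) in pons and 103 ± 25.1 CPM (SD, n = 7) in corpus callosum of the diet mice. In the plasma mice pons led with 131 ± 14.2 CPM (SD, n = 6), ahead of corpus callosum with 126 ± 10.4 CPM (SD, n = 5). Entorhinal cortex was lowest in both, at 32 ± 9.99 CPM (SD, n = 8) and 28.4 ± 8.81 CPM (SD, n = 7), a span of 3.87-fold and 4.61-fold. Visual cortex, posterior hippocampus and motor cortex lay just above it.

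Fgfr3 was the most even of the kinases. It spanned 1.95-fold in the diet experiment, from 66.0 ± 12.9 CPM (SD, n = 9) in caudate putamen to 129 ± 17.4 CPM (SD, n = 9) in medulla. In the plasma experiment the same regions marked the ends, at 61.0 ± 6.45 and 136 ± 13.1 CPM (SD, n = 7 each), a span of 2.23-fold. Hypothalamus, thalamus and pons stood next to medulla, with 120, 115 and 113 CPM in the diet mice. Cerebellum, where Fgfr1 was near its peak, was among the lowest for Fgfr3, at 66.8 ± 6.88 CPM (SD, n = 9).

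Fgfrl1, the receptor without a kinase, was also highest in medulla, at 23.6 ± 4.34 CPM (SD, n = 9) and 23.0 ± 3.30 CPM (SD, n = 7). SVZ came next with 18.3 ± 3.24 and 18 ± 2.5 CPM. Thalamus was lowest, at 9.51 ± 1.1 CPM (SD, n = 9) in the diet and 10.9 ± 1.77 CPM (SD, n = 7) in the plasma mice, so the regions spanned 2.48-fold and 2.11-fold.

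Neighbours in these orders could not be told apart by the test used. The order of the diet experiment gave 14 neighbouring pairs of regions per gene, and each pair was compared within mice by an exact two-sided sign-flip permutation test, adjusted over the 14 pairs. For each gene 0 of the 14 pairs passed in either experiment. Before adjustment, 4 pairs of Fgfr1, 2 of Fgfr2, 1 of Fgfr3 and 2 of Fgfrl1 had p under 0.05 in the diet mice. In the plasma mice the counts were 3, 4, 2 and 2, and some of these pairs ran against the diet order. They were Fgfr1 in hypothalamus minus medulla (log2 difference -0.20), Fgfr2 in medulla minus pons (-0.12) and Fgfr3 in choroid plexus minus motor cortex (-0.14). Of all 14 pairs, 9, 10, 12 and 9 kept their sign in the plasma mice. The smallest exact p that 9 mice allow is 0.00391, that 6 mice allow 0.0312, so the plasma experiment in particular could show little. After adjustment over the 14 pairs, a pair could not pass alone in either experiment, so the counts of 0 do not show that neighbours were alike. The Fgfr1 step from cerebellum down to hypothalamus had the smallest p that its mice allow in both experiments, with log2 differences of 0.42 (exact p 0.00781) and 0.49 (exact p 0.0312).

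Levels of different genes were compared only per kilobase of the transcript named above. On that scale Fgfr1 led in 8 of 15 regions of the diet experiment, Fgfr3 in 4 and Fgfr2 in 3, and in the plasma experiment they led in 7, 4 and 4. These leads depend on the transcript chosen for each gene and were not tested, and some were narrow. In SVZ of the diet mice Fgfr1 and Fgfr2 both stood at 29.2 CPM per kb. In their entorhinal cortex Fgfr3 had 24.2 ± 3.37 and Fgfr1 22.9 ± 3.89 CPM per kb (SD, n = 8). Fgfr1 led in pons (49.7 CPM per kb), cerebellum (44.3) and hypothalamus (33.1) of the diet mice. Fgfr2 led in medulla (37.3 CPM per kb), corpus callosum (31.1) and caudate putamen (19.9). Fgfr3 led in thalamus (27.1 CPM per kb), entorhinal cortex (24.2), motor cortex (21.3) and visual cortex (20.3). Fgfrl1 was lowest in all 15 regions of both experiments, between 4.08 and 10.1 CPM per kb in the diet mice.

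Regional profiles were also set beside those of cell type markers. Over the 15 region means of log2 CPM, Fgfr1 correlated most with the summed astrocyte markers (Pearson r 0.700 in the diet and 0.749 in the plasma mice). Fgfr2 correlated most with the oligodendrocyte markers (0.804 and 0.868), while Fgfr3 correlated most with those of oligodendrocyte precursors in the diet mice (0.636) and of neurons in the plasma mice (0.582). Fgfrl1 reached 0.436 with the precursor list over both experiments. These are descriptions over 15 regions that share mice and libraries. In bulk tissue, fewer cells of a type and less RNA per cell cannot be told apart. Olfactory bulb was an exception for both leading pairs, with more Fgfr1 and Fgfr2 than other regions of the same glial marker level. It was not the only departure for Fgfr1. In the diet mice thalamus had 71.4 CPM and choroid plexus 155 CPM of Fgfr1, at astrocyte marker sums of 4352 and 4376 CPM.

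**Figure D2:**
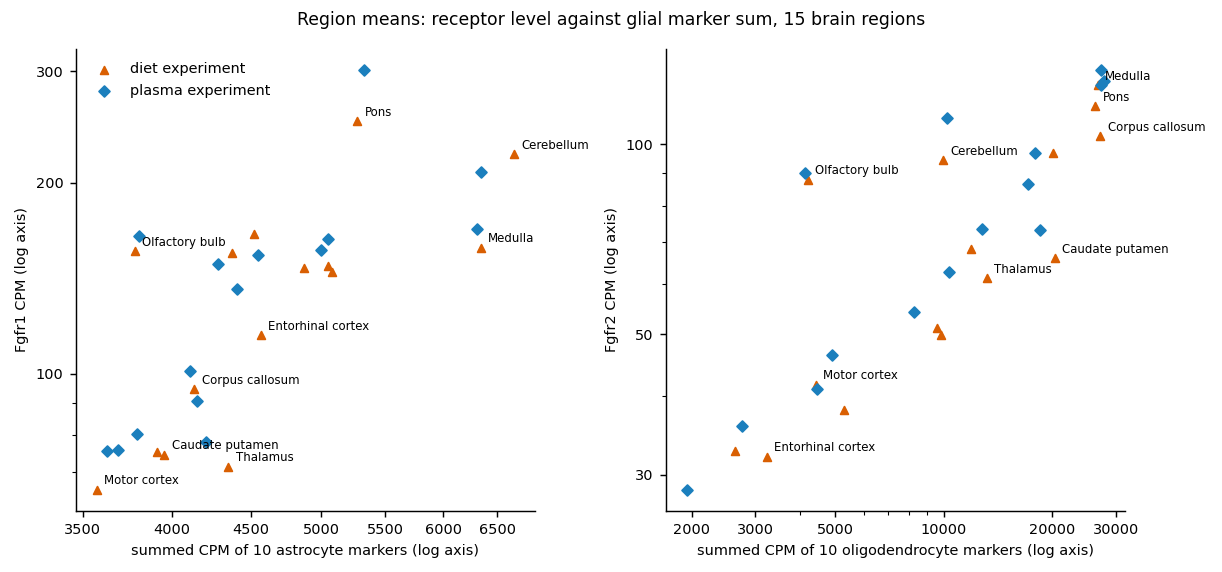
Region means of Fgfr1 against the sum of 10 astrocyte markers (left) and of Fgfr2 against the sum of 10 oligodendrocyte markers (right), in CPM on log axes, for the diet (triangles) and plasma (diamonds) experiments. Most regions rise from lower left to upper right, and olfactory bulb lies above the others of its marker level in both panels.

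The genes whose regional profile was most like that of a receptor were taken from the AL mice by Pearson correlation over 15 region means among 15616 genes, with the value in PBS mice beside it. For Fgfr2 the leading gene was Slc12a2, the sodium potassium chloride cotransporter NKCC1 (0.981, and 0.979 in PBS mice, where it ranked 1). Golga7 (0.979 and 0.962), Qk, the RNA-binding protein quaking of myelinating cells (0.978 and 0.957), Ly9 (0.977 and 0.896) and Sema4d (0.966 and 0.973) followed. For Fgfr3 it was Atp13a2, a lysosomal polyamine transporter (0.948 and 0.964), ahead of Mrpl12, Hars, Upp2 and Atpaf2, all at 0.927 or more in AL and 0.797 or more in PBS mice. Fgfr1 was less closely matched, by Pgpep1 (0.896 and 0.749), Msr1, Top3a, Gsdmd and Them4. Of these Gsdmd fell to rank 6214 in PBS mice, with a coefficient of 0.202. Fgfrl1 had the loosest matches, Dmrt3 (0.821 and 0.606), Lamtor1, P2rx6, Car5b and Cdk1. Among the receptors themselves the closest pair was Fgfr1 with Fgfr2 (0.502 and 0.535), and Fgfr2 with Fgfr3 showed no relation (-0.00627 and -0.135).

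Restricted mice had more Fgfr3 and less Fgfr2 and Fgfrl1 than freely fed mice in most brain regions, and no such pattern was seen for Fgfr1. Fgfr3 was higher under restriction in 14 of 15 regions, with a median log2 change of 0.22 and a range of -0.035 in pons to 0.33 in olfactory bulb. Fgfr2 was lower in 13 of 15 regions, with a median of -0.31, and Fgfrl1 in 13 of 15, with a median of -0.19. Fgfr1 was higher in 8 and lower in 7, with a median of 0.031. Of the genes tested in all 15 regions, 15.0% moved in the same direction in at least 13 of them and 7.46% in at least 14, so such runs were common in these mice.

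With 1 value per mouse over all brain regions (the mouse term of log2 CPM after the region term), the AL mice had Fgfr3 values of -0.05, -0.062, -0.14 and -0.15, on a log2 scale centred on all mice. The aDR mice had 0.19, 0.11, -0.024, 0.11 and 0.014. Every aDR mouse was above every AL mouse. The log2 difference was 0.18 (SE 0.043), with p 0.00147 and a limma adjusted p of 0.0650 over all genes. Fgfrl1 values were 0.12, 0.11, 0.085 and 0.07 in AL and -0.074, -0.12, -0.0047, -0.01 and -0.18 in aDR mice. The groups again did not overlap, and the log2 difference was -0.18 (SE 0.044, adjusted p 0.0798). Mouse values that do not overlap between the groups were found for 8.30% of all genes.

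Fgfr2 values were 0.0039, 0.32, 0.11 and 0.26 in AL and 0.048, 0.0068, -0.15, -0.041 and -0.55 in aDR mice. The log2 difference was -0.31 (SE 0.11, adjusted p 0.19), and the groups overlapped. The low end was aDR mouse 67, whose Fgfr2 lay below the AL mean in 13 of its 15 regions, with a median log2 deviation of -0.79. Without this mouse the log2 difference was -0.20. Fgfr1 differed by 0.019 (SE 0.039, adjusted p 0.856). None of the 4 genes was among the 272 genes, or 1.74% of those tested, that passed an adjusted p of 0.05.

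**Figure D3:**
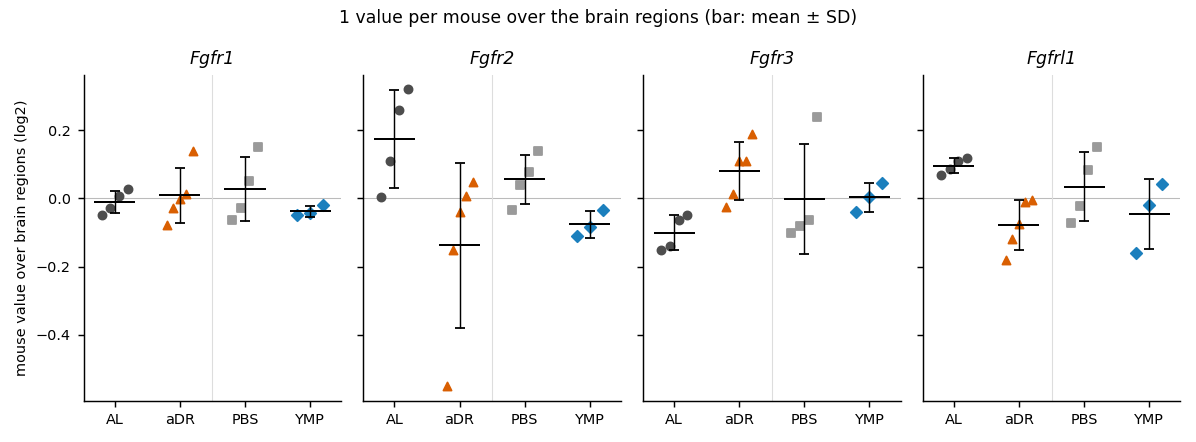
Mouse values over the brain regions (log2, vertical axis) by treatment, with 1 point per mouse and bars for mean ± SD. The AL and aDR points do not overlap for Fgfr3 (aDR higher) and Fgfrl1 (aDR lower), and 1 aDR mouse lies at -0.55 for Fgfr2.

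Other fits moved some of these values past the threshold. In pons, the library of aDR mouse 67 had 23.4% of all counts in the 10 most counted genes, against 5.72 to 7.12% in the other pons libraries of the experiment. It held 35.0 CPM of Fgfr3 against 109 to 138 in the others, 29.4 CPM of Fgfr2 against 79.7 to 164 and 4.17 CPM of Fgfrl1 against 11.8 to 17.3. Without it and the libraries under 2 M counts, a set chosen after seeing the data, the Fgfr3 difference was 0.21 (limma adjusted p 0.0287). There 357 genes were called. In that fit Fgfrl1 differed by -0.15 (adjusted p 0.0503) and Fgfr2 by -0.28 (adjusted p 0.154), and neither passed. Leaving out all libraries of aDR mouse 64 gave limma adjusted p-values of 0.0310 for Fgfr3, 0.0623 for Fgfrl1 and 0.226 for Fgfr2. This mouse had the lowest Fgfr3 value of the aDR mice. No receptor gene was called when any other mouse was left out. Over all fits run, the adjusted p reached 0.178 for Fgfr3, 0.206 for Fgfrl1 and 0.377 for Fgfr2. A different model on all libraries was limma voom with the mouse as a random block, in a fit that called 1474 genes. It gave adjusted p-values of 0.00110 for Fgfr2, 0.00234 for Fgfr3 and 0.00828 for Fgfrl1. Its units were libraries, and its within-mouse correlation was shared by all genes. These p-values therefore do not rest on the mouse as the replicate.

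Within single regions Fgfr2 fell in cerebellum. Its level was 76.9, 91.3, 70.0, 79.4 and 65.1 CPM in the 5 aDR mice and 111, 114, 131 and 112 CPM in the 4 AL mice. All aDR libraries were below all AL libraries. The means were 76.6 ± 10 CPM (SD, n = 5) and 117 ± 9.18 CPM (SD, n = 4). By the edgeR quasi-likelihood test the log2 change was -0.60 (SE 0.089) with an adjusted p of 0.03. Only 7 of 13366 genes, or 0.0524%, were called in cerebellum. In the same libraries all 10 oligodendrocyte markers were lower in the aDR mice, 7 of them with p under 0.05, with a median log2 change of -0.48. Their summed level was 4951 to 12791 CPM in aDR and 8265 to 14761 CPM in AL mice, and their part in the Fgfr2 result was not tested.

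Thalamus had a like Fgfr2 difference that missed the threshold. The aDR mice had 49.3, 63.6, 51.8, 46.4 and 36.6 CPM, all below the 79.5, 75.9, 76.0 and 73.5 CPM of the AL mice. The log2 change was -0.58 (SE 0.13) with p 8.04e-04 and an edgeR adjusted p of 0.675. Here 4 of 10 oligodendrocyte markers were higher in aDR mice, with a median log2 change of -0.04, and their part in the Fgfr2 difference was not tested. DESeq2 gave an adjusted p of 0.0310 for Fgfr2 in thalamus, where it called 15 of 17995 genes.

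Fgfr3 rose in olfactory bulb. The aDR mice had 102, 89.5, 96.8, 96.0 and 99.8 CPM and the AL mice 73.8, 71.6, 79.1 and 83.6 CPM, without overlap. The means were 96.8 ± 4.71 CPM (SD, n = 5) and 77.0 ± 5.41 CPM (SD, n = 4). By the same test the log2 change was 0.33 (SE 0.058) with an adjusted p of 0.0455. In olfactory bulb 31 of 14119 genes, or 0.220%, were called. The astrocyte marker sum was 3523 to 3996 CPM in aDR and 3733 to 3849 CPM in AL mice there, and 4 of the 10 markers were higher. The part of these markers in the Fgfr3 result was not tested.

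Elsewhere the higher Fgfr3 levels did not pass. In motor cortex the aDR mice had 102, 102, 95.5, 92.6 and 99.0 CPM and the AL mice 76.1, 73.8, 78.7 and 92.7 CPM, which overlapped by a single pair (log2 change 0.28, SE 0.066, p 4.83e-04, edgeR adjusted p 0.0947). DESeq2 called it (adjusted p 0.0325), as 1 of 75 genes called among 12712. In hypothalamus 143, 125, 139 and 129 CPM stood above 116, 112, 105 and 91.0 CPM, with a log2 change of 0.33 (SE 0.095, adjusted p 0.986). Visual cortex had a log2 change of 0.23 (SE 0.069, adjusted p 0.269), corpus callosum of 0.23 (SE 0.088, adjusted p 1) and entorhinal cortex of 0.26 (SE 0.10, adjusted p 1). In these 5 regions and olfactory bulb the unadjusted p of Fgfr3 was under 0.05.

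The Fgfrl1 log2 change was -0.33 in both medulla, the region of its highest level, and pons. In pons the groups overlapped (SE 0.28, p 0.276). In medulla the aDR mice had 22.1, 15.1, 22.9, 23.5 and 20.2 CPM and the AL mice 25.6, 26.8, 26.4 and 30.1 CPM, without overlap (log2 change -0.33, SE 0.10, p 0.00634, edgeR adjusted p 0.646). Fgfr1 had no region with p under 0.05 in the brain, and its largest log2 change was 0.25 in anterior hippocampus (adjusted p 1). Over all regions, liver and genes the diet fits called 0.0616% of the tests. Groups without overlap in CPM made up 3.12% of the tests within brain regions, and they were found for Fgfr3 in 3 of 15 regions, Fgfr2 in 3, Fgfrl1 in 1 and Fgfr1 in 0.

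**Figure D4:**
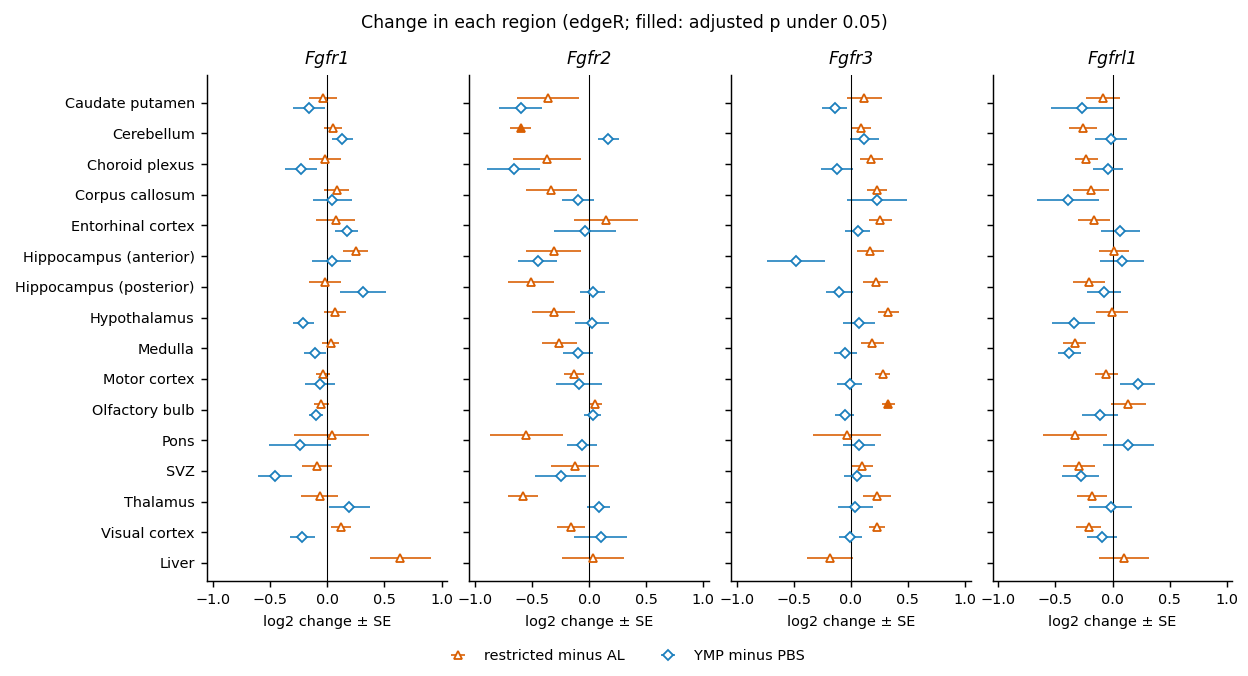
Log2 change with its SE (horizontal axis) of each receptor gene in each region, for restricted minus AL mice (triangles) and YMP minus PBS mice (diamonds), filled where the adjusted p was under 0.05. The filled points are Fgfr2 in cerebellum and Fgfr3 in olfactory bulb, both for diet, and the diet points of Fgfr3 lie right of 0 in every brain region but pons.

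Both edgeR calls were close to the threshold, while DESeq2 gave adjusted p-values of 1.49e-06 for Fgfr2 in cerebellum and 7.89e-04 for Fgfr3 in olfactory bulb. DESeq2 also called more genes than edgeR, 168 of 12782 in cerebellum and 133 of 7730 in olfactory bulb. With 1 mouse left out at a time, the edgeR log2 changes stayed between -0.67 and -0.55 and between 0.29 and 0.36. By edgeR the cerebellar Fgfr2 call was kept only without mouse 62 or mouse 69, and the adjusted p reached 0.144 without mouse 66. The olfactory bulb Fgfr3 call was kept only without mouse 62, 65 or 69, reached 0.243 without mouse 66, and was 0.0511 when library totals replaced TMM scaling.

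Whether the diet effect differed between regions was tested with all region by treatment terms together. No receptor gene passed, with the smallest p at Fgfrl1 (0.550) and adjusted p-values of 1. Only 2 genes, or 0.0128%, passed that test, so the regional calls above are not shown to be larger than the changes in other regions.

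No receptor gene was called between YMP and PBS mice in any brain region, by edgeR or by DESeq2, and in edgeR 5 comparisons had p under 0.05. In 205500 tests the plasma fits called 26, or 0.0127%. With 1 value per mouse, 0 of 15768 genes, or 0%, were called by limma and 1315 had p under 0.05. Fgfr2 had the largest difference of the 4, at -0.13 (SE 0.046, p 0.0208, adjusted p 0.528). The YMP mice had Fgfr2 values of -0.085, -0.034 and -0.11 and the PBS mice 0.14, 0.039, -0.034 and 0.078, so the groups met at their edges. Fgfr1 differed by -0.065 (SE 0.052), Fgfrl1 by -0.079 (SE 0.075) and Fgfr3 by 0.0055 (SE 0.08), all with adjusted p-values of 0.758 or more. Mouse values did not overlap for 10% of all genes in this experiment, and for none of the 4.

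Single regions had Fgfr2 values that were lower under plasma without passing. In caudate putamen the YMP mice had 69.5, 46.7 and 54.0 CPM and the PBS mice 68.5, 111, 87.5 and 76.2 CPM (log2 change -0.60, SE 0.19, p 0.0118). In choroid plexus the values were 43.3, 76.1 and 75.2 against 117, 117, 86.6 and 90.2 CPM (log2 change -0.66, SE 0.23, p 0.0216). Anterior hippocampus had a log2 change of -0.45 (SE 0.17, p 0.0303). All 3 adjusted p-values were at least 0.474. The oligodendrocyte markers were lower in all 10 cases in each of these regions, with median log2 changes of -0.92, -0.24 and -0.66. In caudate putamen and anterior hippocampus all 10 had p under 0.05. The astrocyte markers were lower in 10 of 10 cases in caudate putamen (median -0.20, 2 with p under 0.05), and their sum was 3071 to 3327 CPM in YMP and 3568 to 4870 CPM in PBS mice, without overlap. In choroid plexus and anterior hippocampus 4 and 3 of the 10 astrocyte markers were higher, with medians of -0.082 and -0.13. The part of either list in the Fgfr2 values was not tested.

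In medulla Fgfrl1 was lower under plasma as well, at 20.4, 20.2 and 18.7 CPM in YMP and 24.1, 24.7, 25.7 and 27.5 CPM in PBS mice, without overlap. The log2 change was -0.38 (SE 0.10, p 0.00416, edgeR adjusted p 0.438), beside the -0.33 of the diet experiment on separate animals. Oligodendrocyte markers in these libraries were lower in 10 of 10 cases, 6 with p under 0.05, and in the diet medulla 7 of 10 were higher. The part of these markers in the Fgfrl1 values was not tested. Fgfr1 in SVZ was 102, 92.5 and 142 CPM in YMP and 127, 159, 166 and 161 CPM in PBS mice (log2 change -0.46, SE 0.15, p 0.0163). The choroid plexus markers of those SVZ libraries summed to 28.6 to 54.1 CPM in YMP and 2917 to 20078 CPM in PBS mice, and their part was not tested. Groups without overlap made up 9.23% of the plasma tests within brain regions, and they were found for Fgfrl1 in 2 regions, Fgfr1 and Fgfr2 in 1 each and Fgfr3 in 0. No receptor gene passed the region by treatment test, with adjusted p-values of 0.935 or more, where 0.786% of genes did.

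**Figure D5:**
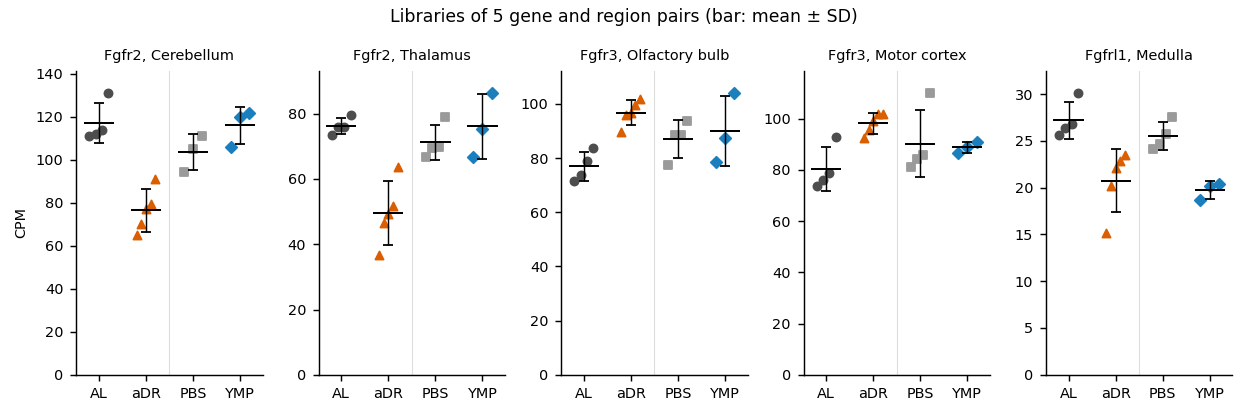
CPM per library (vertical axis from 0) for 5 pairs of gene and region picked after their values were seen, with bars for mean ± SD. The aDR points lie below the AL points for Fgfr2 in cerebellum and thalamus and Fgfrl1 in medulla and above them for Fgfr3 in olfactory bulb, and YMP lies below PBS for Fgfrl1 in medulla.

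Liver had another balance of the receptors. Fgfr1 was low there, at 8.18 ± 2.74 CPM (SD, n = 9), below every brain library. Fgfr3 averaged 43.6 ± 11.3 CPM, Fgfr2 34.4 ± 9.55 CPM and Fgfrl1 29.3 ± 6.89 CPM, and per kilobase Fgfrl1 led with 12.6 CPM. Fgfr4, the liver kinase outside the set, stood at 27.5 ± 7.99 CPM (SD, n = 9) in liver and at most 1.95 CPM in any brain library. Albumin at 44924 CPM or more in liver and at most 0.489 CPM in brain matched the tissue labels.

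No receptor gene was called between the diets in liver, where 26 of 11815 genes, or 0.220%, were called. Fgfr1 was 8.97, 6.62, 10, 7.42 and 14.2 CPM in DR and 6.10, 7.37, 8.15 and 4.78 CPM in AL mice, which overlapped (log2 change 0.64, SE 0.27, p 0.0403, edgeR adjusted p 0.501). Without mouse 67 the log2 change was 0.38. Fgfr2 differed by 0.037, Fgfrl1 by 0.10 and Fgfr3 by -0.18, with adjusted p-values of 0.905 or more. Fgfr2 in DR mouse 67 was 56.5 CPM, against 25.7 to 33.1 CPM in the other DR mice, so the mouse with the lowest brain value had the highest liver value. The difference between the liver and the brain effect of restriction within mice was not called for any of the 4, with values from -0.37 for Fgfr3 (adjusted p 0.737) to 0.52 for Fgfr1 (adjusted p 0.703). Without mouse 67 the Fgfr1 value was 0.31. That test called 0.0705% of genes.

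The other genes of the pathway were followed in 8 lists with 81 genes in the table. Over the brain regions 74 were tested and 0 were called for either treatment by limma, 11 with p under 0.05 for diet and 12 for plasma, where 2619 of 15616 and 1315 of 15768 genes had such a p. Ligands were led by Fgf1, whose regional medians ran from 44.5 to 329 CPM and peaked in pons, as Fgfr1 did. Of the 12 secreted ligands tested, 4 were higher under restriction, with a median log2 change of -0.037 against -0.0062 over all genes. The endocrine ligands Fgf15, Fgf21 and Fgf23 were at most 0.337 CPM in the median of any brain region, and Fgf21 was 2.64 CPM in the median of liver.

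Heparan sulfate genes, which build and trim the co-receptor chains, were higher under restriction in 12 of 14 cases, with p under 0.05 for 2 and with a median log2 change of 0.035. The smallest p was that of the sulfotransferase gene Ndst2 (log2 change 0.13, SE 0.031, adjusted p 0.0634). Of 18 adaptor and relay genes 12 were higher (median 0.0075), among them Ptpn11, the phosphatase SHP2 (0.10, SE 0.025, adjusted p 0.0716). In the same list Gab1 (-0.17, SE 0.054, limma adjusted p 0.145) and Plcg1 (-0.088, SE 0.03, limma adjusted p 0.168) were lower. Like Ptpn11, both had p under 0.05. Feedback inhibitors (Sprouty, Spred and dual specificity phosphatase genes, Cbl and Il17rd) were higher in 4 of 11 cases (median -0.063). The smallest p among them was that of Spred1 (-0.10, SE 0.032, limma adjusted p 0.147). Of the transcription factor targets 1 of 6 was higher, and Etv4 had the smallest p (-0.27, SE 0.065, adjusted p 0.0715). Intracellular FGF homologous factors were lower in 4 of 4 cases (median -0.083). Of the co-receptor and binding partner genes tested, all but Fgfbp1 (0.38, SE 0.23, limma adjusted p 0.436) were lower. Among them L1cam (-0.14, SE 0.048, adjusted p 0.159) and Ncam1 (-0.069, SE 0.03, adjusted p 0.275) had p under 0.05. After plasma the target genes were higher in 5 of 6 cases (median 0.12), with Egr1 at 0.22 (adjusted p 0.593), and the feedback gene Dusp6 at 0.22 (adjusted p 0.590). The Klotho gene Kl had the smallest plasma p of all pathway genes over the brain (-1.16, SE 0.20, limma adjusted p 0.259). The genes Ndst2, Ptpn11, Spred1, Etv4, L1cam, Egr1, Dusp6 and Kl are those of smallest p in their list for the treatment given. They and Fgf1, Ncam1, Fgfbp1, Gab1 and Plcg1 were picked here after the values were seen.

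Within regions and liver, 0 of 1099 diet tests of these genes were called by edgeR, 75 with p under 0.05, and 1 of 1046 plasma tests, that of Kl in corpus callosum, 85 with p under 0.05. Kl encodes Klotho, the co-receptor for endocrine FGF, and is a choroid plexus gene in the brain. It was at 132 to 484 CPM in 3 PBS and 0.563 to 0.704 CPM in 2 YMP libraries (edgeR adjusted p 0.0204). In the same libraries the 10 choroid plexus markers summed to 5040 to 18943 CPM in PBS and 9.19 to 22.3 CPM in YMP mice, and their part in the Kl result was not tested. In the region by treatment test Kl (adjusted p 6.36e-04) and Fgfbp1 (adjusted p 0.0298), a carrier of secreted FGF, were the 2 pathway genes of 74 called for plasma, and 0 of 74 were called for diet, 1 with p under 0.05. Over all genes that test called 124 of 15768, or 0.786%, for plasma and 0.0128% for diet.

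Cell type markers were followed over the whole brain in the diet mice. The astrocyte list was higher in 5 of 10 cases, with a median of -0.00047 and 1 gene called, Gjb6 (log2 change 0.28, adjusted p 0.0367). The oligodendrocyte list was higher in 6 of 10 (median 0.062) and the neuron list in 3 of 8 (median -0.016), with p under 0.05 for 1 and 0 genes. Of 7 endothelial genes 3 were higher (median -0.12), and 2 were called lower, Cldn5 (-0.48) and Flt1 (-0.26). Of 8 microglial genes 0 were higher (median -0.051), and Cx3cr1 (-0.13) was called lower. Over all genes this fit called 1.74%. Blood cell genes were higher in 5 of 5 cases, with a median of 0.93 and p under 0.05 for 1. Mean oligodendrocyte mouse values ran from -0.21 to 0.23 in aDR and -0.14 to 0.18 in AL mice, with aDR mouse 67 lowest, and their part in the Fgfr2 values over the brain was not tested. Choroid plexus markers after plasma were lower in 10 of 10 cases (median -1.29), each with p under 0.05. Choroid plexus libraries held neuronal Snap25 at 1961 to 3597 CPM, and Ttr reached 17422 CPM in corpus callosum and 18358 CPM in SVZ.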

How the data were processed

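RNA was measured in 238 libraries made with Smart-Seq2 and Nextera XT, without strand information per the labels' protocols, from 15 brain regions and liver of 16 mice. The values are whole-number read counts per gene in 1 table deposited by the authors. The submitters' processing notes name Trim Galore 0.3.7, STAR 2.5.3a, DESeq2 and the GRCm38 build, without stating their roles. The counting program is not given in the sources used here. Library totals ran from 0.606 to 32.4 M counts (median 8.44 M), 6 libraries were under 2 M, 537 gene rows had no count and 0 columns were left unused.

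The members, the pathway and marker lists and the tests were chosen with earlier results of these data known. By the rule for named genes, the text names all 4 receptor genes, the pathway genes called across the brain, in liver or in the region by treatment test (beyond 10, the 10 with the largest change), and the 5 genes with the highest correlation over 15 region means in AL mice. Other genes were named after their values were seen.

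CPM values and their ranges use plain library totals. Comparisons within a region used edgeR 4.0.16 in R 4.3.3, by its quasi-likelihood test with TMM scaling and filterByExpr (minimum count 10, minimum total 15), 1 fit per region. For the whole brain, log2 CPM values (prior count 2) were fitted with a region term and a mouse term, and the mouse terms were compared with limma 3.58.1 (eBayes with a trend). Region by treatment terms and region terms were tested with edgeR F tests, the latter with the mouse as a block. Sign-flip tests used log2(CPM + 0.5). Adjustment followed Benjamini and Hochberg over all genes tested, and a gene was called at an adjusted p under 0.05. The code was tested on simulated counts.

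Libraries with the same mouse number came from 1 animal, so the number pairs regions and never treatments. Deviations from the group mean correlated on average at 0.0420 within an animal and -0.00520 across animals in the diet experiment, and at 0.0849 and -0.0142 in the plasma experiment. Of 357 replicate pairs none agreed within sampling noise (chi-square per degree of freedom at least 1.29 over genes with at least 20 counts). Reads carry no molecular identifiers, so counts are not independent molecules. Promoter windows of 250 bases came from RefSeq (GRCm38), and gene models from GENCODE on the same build. Alternatives were DESeq2 1.42.0, other scalings, prior counts and filters, leaving out each mouse, the replicate block, and sets of libraries or regions. Figures were drawn with matplotlib 3.10.9.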

Additional observations from a re-analysis of the deposited data

Results flagged for a closer look

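Among 168 groups of 4 or more libraries or mice, 14 had a sample far from the others by Dixon's test, where chance alone gives about 8.4, or 1 in 20. Of the aDR and DR samples, mouse 67 was flagged in 3 groups. It had 274 CPM of Fgfr1 in cerebellum against 210 to 214 in the others, 35.0 CPM of Fgfr3 in pons against 118 to 138, and 56.5 CPM of Fgfr2 in liver against 25.7 to 33.1. The aDR mouse 65 had 16.7 CPM of Fgfrl1 in choroid plexus against 13.6 to 14.5.

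Of the AL samples, mouse 68 had 131 CPM of Fgfr2 in cerebellum against 111 to 114 in the others and 79.7 CPM of Fgfr3 in the same library against 58.8 to 61.9. Mouse 69 had 140 CPM of Fgfr1 in hypothalamus against 169 to 172.

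Of the PBS samples, mouse 72 had 93.3 CPM of Fgfr1 in entorhinal cortex against 81.7 to 83.2, 45.5 CPM of Fgfr2 in the same library against 21.7 to 24.9, and 127 CPM of Fgfr1 in SVZ against 159 to 166. Mouse 76 had 193 CPM of Fgfr1 in anterior hippocampus against 140 to 149. Mouse 84 had 90.9 CPM of Fgfr3 in choroid plexus against 82.1 to 83.5 and 110 CPM in motor cortex against 81.3 to 85.7. Its Fgfr3 value over the brain regions was 0.24 on the log2 scale, against -0.10 to -0.06 in the other PBS mice.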

How the results depend on the processing

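Of the counts of receptor genes called and the single-gene values recomputed under each alternative, most kept their direction and their side of the threshold. The number of receptor calls for diet within regions and liver was 2. It was 4 with DESeq2, 1 with library totals in place of TMM, and between 0 and 3 when a mouse was left out. Over the brain regions 0 were called for diet. With the mouse as a replicate block in voom 3 were, in a fit that called 1474 of 15616 genes. With no replicate block 3 were, in a fit that called 2760 of 15616. Without the libraries under 2 M counts and the pons library of aDR mouse 67 (chosen after seeing the data) 1 was. That fit called 357 of 15598 genes. Between 0 and 1 were called when a mouse was left out, in fits that called 52 to 302 genes. For plasma over the brain regions 0 were called, and 1 with no replicate block in voom, Fgfrl1 (adjusted p 0.0341). That voom fit called 2632 of 15768 genes. With TMM-scaled levels 3 neighbouring pairs of regions differed in the diet experiment, against 0. The cause was not tested for any of these.

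Signs turned for 3 values, none of them called. Fgfr1 over the brain regions for diet was -0.015 without mouse 61 and at most 0.04 without another mouse. Fgfr3 for plasma was -0.0075 with the mouse as a replicate block, -0.011 with no replicate block, -0.0027 without choroid plexus and corpus callosum, and -0.026 to -0.012 without mouse 72, 73, 76 or 80, against 0.082 without mouse 84. The liver minus brain difference of Fgfr2, 0.25 with all mice, was -0.10 without mouse 67 and at most 0.38 without another mouse. The counts over all genes moved too. For diet over the brain they were 272 in the reported fit, 144 without the trend in eBayes (added after seeing the data), 165 without a filter, 163 without choroid plexus and corpus callosum, 1474 with the mouse as a replicate block, 2760 with no replicate block, and 52 to 302 when a mouse was left out. For plasma they were 0, 485 with the block and 2632 without. For cerebellum and olfactory bulb DESeq2 called 168 and 133 genes. No paired analysis was possible between treatments because a mouse received only 1 treatment. Region by treatment calls stayed at 0 receptor genes with the block, and regional level calls at 4 with no replicate block. Fgfrl1 had the fewest reads, with a median of 117 and as few as 9 in a library, and its median CV over mice (15.4 and 14.3%) was near that of Fgfr1 (14.4 and 14.2%). What depth limits was not tested.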
